A study of Mus musculus with 4 samples.

Results

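The genes described here encode the retinoblastoma (pocket) proteins, Rb1, Rbl1 (p107) and Rbl2 (p130), and 7 factors of the E2F family, E2f1, E2f2, E2f3, E2f4, E2f5, E2f7 and E2f8. They were taken by gene symbol from the authors' deposited table, which held all 10 of them among 16709 symbols, with 15 of its 24746 transcripts. The cells were 3T3-L1 preadipocytes, a mouse fibroblast-like line that can form adipocytes, grown in medium with serum. They received Nutlin-3a at 25 µM for 24 h, or an equal amount of its solvent DMSO, with 2 biological replicates in each of the 2 groups (4 libraries). Nutlin-3a keeps the ubiquitin ligase MDM2 from binding p53, and the comparison asks how transcript levels differ once p53 is released in these cells. No genotype beyond the line itself is given in the labels, and both groups are the same line.

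Pocket proteins bind E2F factors on promoters and recruit corepressors, which holds genes of DNA replication and mitosis silent. Cyclin-dependent kinases phosphorylate the pocket proteins and release the E2Fs, so that a cell enters S phase, and kinase inhibitors such as p21 act against this step. E2f1, E2f2 and E2f3 are classed as activators, E2f4 and E2f5 act mainly with Rbl1 and Rbl2 in repression, and E2f7 and E2f8 are atypical factors that repress without a pocket protein. In preadipocytes the pocket proteins are also known for a part in differentiation, where RB works with C/EBP factors.

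The deposited unit is FPKM, which counts mapped fragments per length of transcript and scales them to the size of the library. Each transcript has a single value for each group, and no library has a value of its own. Replicate error is therefore unknown, the depth of each library is unknown, and no p-value was computed. Higher and lower describe the ratio between the authors' group values, and in every pair of values given below the Nutlin-3a value stands before the DMSO value unless named otherwise. Log2 ratios compare log2(FPKM + 1) of the groups and so understate differences of low genes. Folds are plain ratios of FPKM. Genes were compared when their mean FPKM was at least 1 and both values were above 0, and a difference of at least 2-fold on the log2(FPKM + 1) scale was called. In bulk RNA, fewer cells that express a gene and less RNA per cell cannot be told apart.

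The whole table set the scale for these values. FPKM summed to 967341 in Nutlin-3a and 980491 in DMSO, 4.91% and 15.6% of transcripts were listed at 0, and the median log2 ratio over 10331 genes compared was 0.07 with quartiles of -0.33 and 0.44. Of the 8 preadipocyte and fibroblast markers, 7 were compared, such as Col1a2, a collagen gene, at 263 against 817 FPKM, and Lum was near 0 in both groups. Of these 7 markers, 4 were at least 2-fold lower in Nutlin-3a, beside 6.14% of all genes compared. By any amount 6 were lower, and Dlk1, a preadipocyte marker, was the 1 higher, at 623 against 513 FPKM. Markers of other cell types summed to 7.58 against 3.46 FPKM for macrophages (4 of 5 listed, Ptprc and Itgam at 0 in DMSO), 0.563 against 0.189 for epithelium (4 of 5, Epcam at 0 in DMSO) and 1.72 against 0.174 for endothelium (3 of 4, Kdr at 0 in DMSO). Of 5 markers of mature adipocytes, Fabp4 was listed at 8.65 against 42.0 FPKM, and the other 4 lay below 1 FPKM in both groups, with Lep and Plin1 at 0 in DMSO. The part of these cell types in the results below was not tested. Cdkn1a, the gene of the kinase inhibitor p21 and a p53 target, was 10.98-fold higher (386 against 35.2 FPKM), and Trp53 itself had 63.1 against 54.5 FPKM.

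Several of these genes are themselves known E2F targets, so their promoters are shown before their levels. RefSeq's promoter table (GRCm38.p6, 250 bases before to 50 after a start site) held 9 windows for 7 of the 10 genes, namely Rbl1, Rbl2, E2f1, E2f2, E2f3, E2f7 and E2f8, with E2f2 and E2f3 at 2 start sites each. An E2F site was searched on both strands as TTTCGCGC or TTTGGCGC or TTTCCCGC or TTTGCCGC. It matched in 4 of the 9 windows, against 2.26% of all 32851 promoters in the table. By gene it matched in 4 of 7, against 2.60% of 27025. The windows below are those with a match, together with the other start site of E2f3, a gene whose transcripts went opposite ways. The capitals mark the match, and each sequence is written 5′ to 3′ along the gene.
Rbl1, chr2:157204485-157204784, minus strand: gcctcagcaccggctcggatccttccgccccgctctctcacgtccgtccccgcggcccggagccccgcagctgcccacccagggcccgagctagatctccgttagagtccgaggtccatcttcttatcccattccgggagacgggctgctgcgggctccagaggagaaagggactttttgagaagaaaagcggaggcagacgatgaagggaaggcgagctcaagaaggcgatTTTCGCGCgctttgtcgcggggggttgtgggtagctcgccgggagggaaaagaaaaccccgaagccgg
E2f2 first start, chr4:136172024-136172323, plus strand: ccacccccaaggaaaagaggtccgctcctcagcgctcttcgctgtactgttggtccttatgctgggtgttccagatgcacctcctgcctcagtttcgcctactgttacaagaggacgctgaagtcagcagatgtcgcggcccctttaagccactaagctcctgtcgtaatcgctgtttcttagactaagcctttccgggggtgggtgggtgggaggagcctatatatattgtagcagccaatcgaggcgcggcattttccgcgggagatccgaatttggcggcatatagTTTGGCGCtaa
E2f3 first start, chr13:29986014-29986313, minus strand: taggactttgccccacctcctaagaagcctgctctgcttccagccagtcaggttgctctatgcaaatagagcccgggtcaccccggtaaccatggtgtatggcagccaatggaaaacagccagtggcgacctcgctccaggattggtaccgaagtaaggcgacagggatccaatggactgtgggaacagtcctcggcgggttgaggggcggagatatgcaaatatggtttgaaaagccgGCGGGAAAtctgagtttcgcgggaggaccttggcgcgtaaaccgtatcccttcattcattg
E2f3 second start, chr13:29984342-29984641, minus strand: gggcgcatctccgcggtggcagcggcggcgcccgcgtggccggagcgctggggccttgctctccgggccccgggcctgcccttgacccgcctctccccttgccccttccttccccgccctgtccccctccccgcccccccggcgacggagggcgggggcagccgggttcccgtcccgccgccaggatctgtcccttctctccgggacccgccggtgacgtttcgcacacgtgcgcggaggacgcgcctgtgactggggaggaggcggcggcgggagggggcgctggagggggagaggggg
E2f7, chr10:110745189-110745488, plus strand: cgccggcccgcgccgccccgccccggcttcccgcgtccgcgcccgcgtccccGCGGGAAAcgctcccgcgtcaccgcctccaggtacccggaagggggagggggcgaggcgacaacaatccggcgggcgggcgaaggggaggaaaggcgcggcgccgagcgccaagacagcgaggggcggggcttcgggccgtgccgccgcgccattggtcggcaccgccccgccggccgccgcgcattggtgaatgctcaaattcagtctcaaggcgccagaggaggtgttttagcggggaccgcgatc

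The E2F match of Rbl1 began 18 bases before its start site, and that of E2f3 began 11 bases before its first one. The match of E2f2 began 39 bases after its first start site, inside the transcribed part, and that of E2f7 lay 198 bases before the start. The second start site of E2f3 lies 1672 bases inside the gene, in a window of 78.7% GC, and had no match. The CHR element of mitotic genes, searched on both strands as TTTGAA, was found in windows of Rbl2, E2f2, E2f3 and E2f8 (4 of 9 windows, against 17.9% of all promoters). CCAAT, also on both strands, was found in 5 of 9 windows against 37.4%. By gene, CHR was found in 4 of 7 against 20.2%, and CCAAT in 4 of 7 against 41.1%. The second start site of E2f2 lies 8508 bases inside its listed span. That window held the CHR match of E2f2 and further CCAAT matches. In the first E2f3 window the CHR match at 23 bases before the start and the E2F match do not overlap. The start site behind the E2f1 window lies 466 bases inside the span the authors listed for E2f1. RefSeq gives the whole gene the same ends as that span, so this site is internal to the gene in RefSeq too. The start site behind the E2f8 window lies 555 bases upstream of the listed span of E2f8. The E2f1 window thus lies within the listed span of E2f1, though it is counted above among the 9 windows and 7 genes. Bases upstream of that span were not searched, so the lack of a match says nothing about them. A match describes letters only, and binding was not measured.

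**Figure D1:**
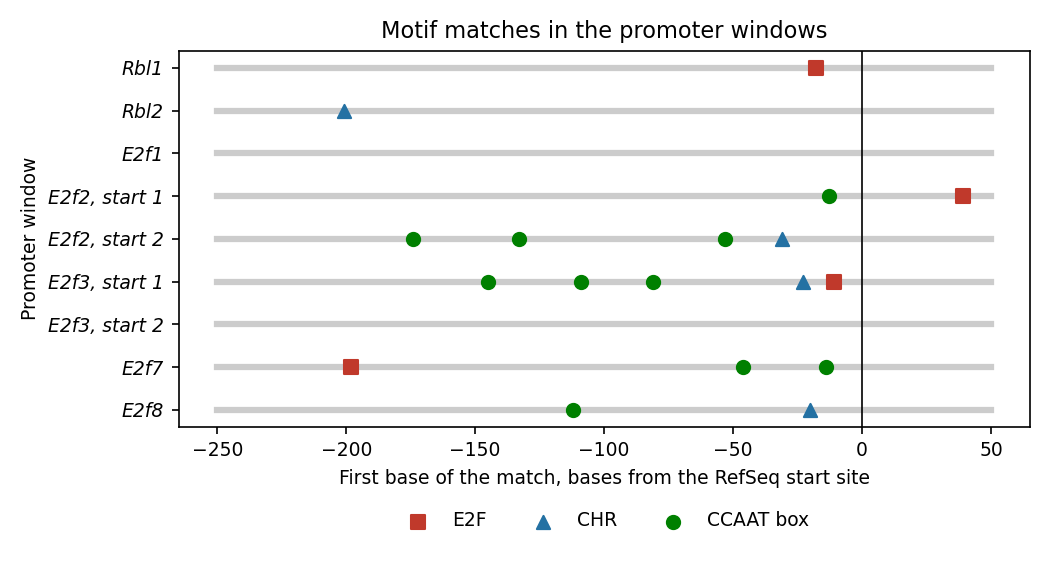
Positions of E2F (squares), CHR (triangles) and CCAAT (circles) matches in 9 RefSeq promoter windows of 7 genes, on a horizontal axis of bases from the start site, with each grey line 1 window. E2F matches sit 18 and 11 bases before the starts of Rbl1 and E2f3, 39 after that of E2f2 and 198 before that of E2f7.

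All 3 pocket protein genes were listed higher in Nutlin-3a, and Rb1 was the one past 2-fold. Rb1, the retinoblastoma gene, had 8.70 FPKM with Nutlin-3a against 1.05 FPKM with DMSO, an 8.25-fold higher value with a log2 ratio of 2.24. Rbl2, the p130 gene, which is the pocket protein typical of resting cells, had 3.40 against 1.80 FPKM, a 1.88-fold higher value with a log2 ratio of 0.65. Rbl1, the p107 gene, which is typical of cycling cells, had 3.16 against 2.08 FPKM, a 1.52-fold higher value with a log2 ratio of 0.43. Summed over the 3 genes, the level was 15.3 against 4.94 FPKM, and most of that difference came from Rb1. Rb1 made up 57.1% of the pocket protein sum in Nutlin-3a and 21.4% in DMSO. Rbl1 moved from the largest share in DMSO, 42.2%, to the smallest in Nutlin-3a, 20.7%.

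Rb1 stood near the top of the table by its ratio. Of the 10331 genes compared, 62 (0.600%) had a log2 ratio at least as high, Rb1 included. Of the 8 members compared, 1 was at least 2-fold higher and none was at least 2-fold lower, while 6.62% of all genes compared were higher and 6.14% lower by that limit, 12.8% in either direction. Among genes with a mean between 1 and 10 FPKM, the range that holds Rb1, 7.75% were higher. At a limit of 1.5-fold, Rbl2 joined Rb1, and the background was 17.8% higher and 15.2% lower. The share of members past a limit is thus close to that of all genes, and the size of the Rb1 ratio is what sets it apart among the members.

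Rb1 also differed from its neighbours on chromosome 14. Its listed span, 73195502 to 73325791 (mm10), is the one the table also gives to Lpar6, a lysophosphatidic acid receptor gene that lies inside Rb1. Lpar6 had 2.50 against 2.11 FPKM, a log2 ratio of 0.17, so the gene that shares the Rb1 span did not share its ratio. Whether the counting used strand is not given in the sources used here. Within 250 kb on either side, Itm2b had a log2 ratio of 0.32, Med4 of 0.34 and Sucla2 of 0.20, while Rcbtb2 had 3.56 against 6.95 FPKM and a log2 ratio of -0.80. All 5 of these neighbours stayed within 2-fold, and Gm9199 and Cysltr2 were under the minimum mean.

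**Figure D2:**
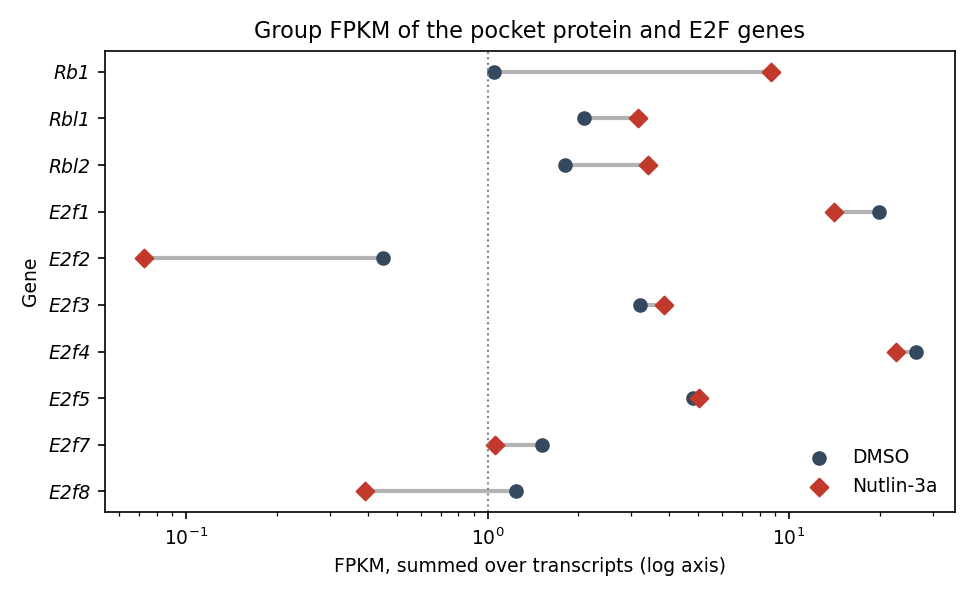
FPKM of each gene, summed over its transcripts, on a log axis, with 1 point for DMSO (circles) and 1 for Nutlin-3a (diamonds) and a dotted line at 1 FPKM. Rb1 moves from 1.05 to 8.70 FPKM, E2f4 and E2f1 hold the highest levels in both groups, and E2f2 and E2f8 lie lowest in Nutlin-3a.

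The Rbl1 and Rbl2 spans differ in how far they can be read. Rbl1 (chromosome 2, 157145894 to 157204534) had a span of its own, with 2 transcripts. The larger had 2.91 against 1.79 FPKM, and the smaller had 0.241 against 0.294 FPKM. Rbl2 (chromosome 8, 91070057 to 91135494) shared its span with Aktip, the neighbouring gene of an AKT-interacting protein, which overlaps its end and had 6.29 against 4.63 FPKM. Nearly all of the Rbl2 level came from 1 transcript, 3.39 against 1.80 FPKM. The accession column of the table does not tell which RefSeq isoform these transcripts are.

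GC content moved with these ratios. Across the table, genes were placed in 20 classes of equal size by the GC content of their longest GENCODE M21 transcript, and medians of the log2 ratio ran from 0.25 for the lowest GC to -0.22 for the highest. Rb1 (41.2% GC), Rbl1 (42.1%) and Rbl2 (47.0%) fell in classes with medians of 0.22, 0.25 and 0.16. E2f1 (58.3%) and E2f4 (56.1%) fell in classes with medians of -0.16 and -0.12. After subtraction of the class median, the log2 ratio was 2.02 for Rb1, 0.49 for Rbl2, 0.18 for Rbl1, -0.30 for E2f1 and -0.09 for E2f4. The directions stayed as they were for these 5 genes, while all 5 ratios shrank, that of Rbl1 from 0.43 and that of E2f4 from -0.21. E2f5 (46.8% GC), in a class with a median of 0.16, turned from 0.06 to -0.10.

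**Figure D3:**
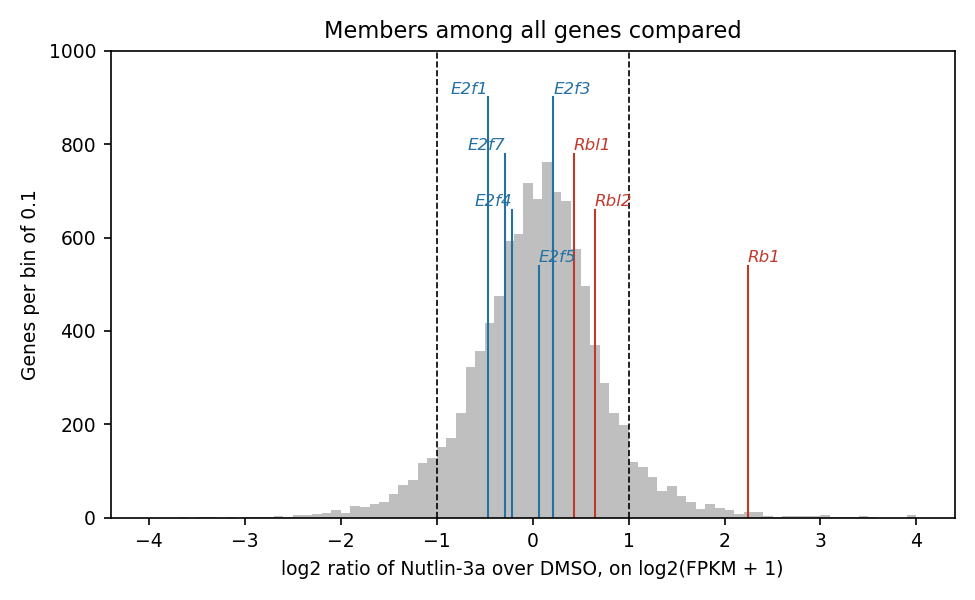
Histogram of log2 ratios, Nutlin-3a over DMSO, for all 10331 genes compared, with values beyond the axis placed in the end bins, dashed lines at 2-fold, and vertical lines of arbitrary height for the 8 members compared (pocket protein genes red, E2F genes blue). Rb1 at 2.24 lies past the upper dashed line, and the other 7 lie inside.

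Among the activator E2Fs, E2f1 was listed lower and E2f3 slightly higher, and E2f2 had the lowest level of the 10 genes in both groups. E2f1, an activator of S phase genes, had 14.1 against 19.8 FPKM, a log2 ratio of -0.47, with 19.3% of genes compared below it. E2f3 had 3.86 against 3.19 FPKM, a log2 ratio of 0.21. E2f2 had 0.0724 against 0.451 FPKM, a plain ratio 6.23-fold lower, but its mean lay under the minimum. The sum of the 3 activators was 18.0 against 23.5 FPKM, and E2f1 supplied most of it in both groups.

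The transcripts of E2f3 went opposite ways under a nearly level sum. One of them had 0.485 against 1.82 FPKM, 3.76-fold lower. The other had 3.38 against 1.37 FPKM, 2.47-fold higher. The second thus held 87.4% of the gene's level in Nutlin-3a and 42.9% in DMSO. E2f3 is known to be made from separate promoters as a longer and a shorter form, whose start sites are the pair printed above, but the table does not tell which transcript belongs to which start. Transcripts that differed by 2-fold or more in both directions were found in 10.0% of 1325 genes with at least 2 transcripts of mean FPKM 1 or more, so the E2f3 pattern is one that many genes in this table have. With the stronger transcript standing for the gene, the log2 ratio of E2f3 was 0.89.

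E2f1 also had a pair of transcripts in opposite directions, with very unequal levels. The main one had 12.7 against 19.3 FPKM and carried the class code j, which in Cufflinks' convention marks an isoform that shares a splice junction with a reference transcript without matching it. The minor one, with the code of a full match, had 1.36 against 0.560 FPKM. It made up 9.65% of the E2f1 level with Nutlin-3a and 2.82% with DMSO. The lower E2f1 sum in Nutlin-3a thus came from the main transcript. E2f1 lies on chromosome 2 from 154559400 to 154569892, and E2f3 on chromosome 13 from 29906575 to 29986063.

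**Figure D4:**
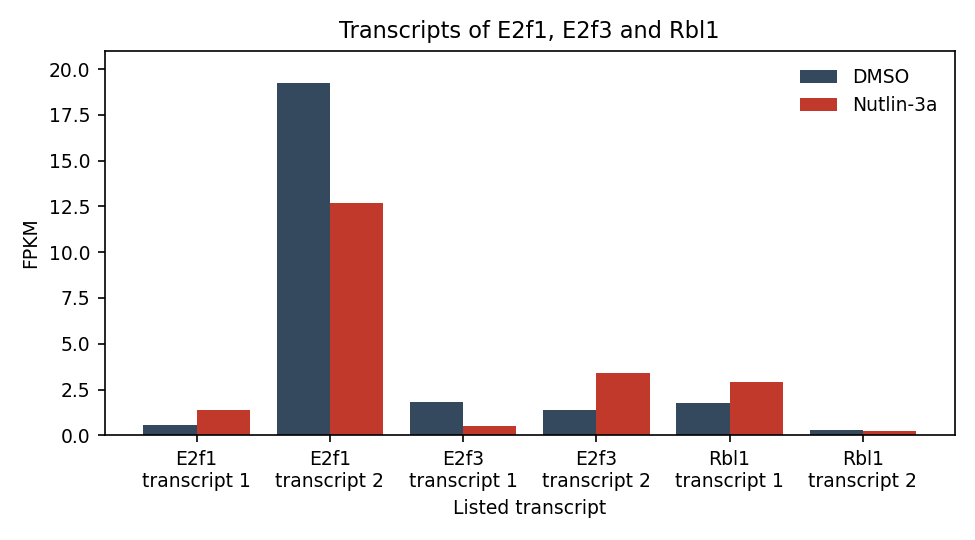
FPKM of each listed transcript of E2f1, E2f3 and Rbl1 in DMSO (dark bars) and Nutlin-3a (red bars), 1 group value each without error bars. The E2f3 transcripts cross, from 1.82 to 0.485 and from 1.37 to 3.38 FPKM, and E2f1 is carried by 1 transcript.

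The repressor factors E2f4 and E2f5 were nearly level. E2f4, the E2F found most in complexes with Rbl1 and Rbl2, had 22.6 against 26.4 FPKM, a log2 ratio of -0.21, and was the highest of the 10 genes in both groups. It supplied 48.0% of the E2F sum in Nutlin-3a and 46.0% in DMSO. E2f5 had 5.03 against 4.78 FPKM, a log2 ratio of 0.06, which became -0.048 after quantile normalization and -0.103 after the GC correction, so it has no stable direction. The E2f5 span (chromosome 3, 14578671 to 14611256) was shared with 1810022K09Rik, listed at 279 against 214 FPKM. That symbol is an older name of Rbis, and the reference places Rbis across the end of E2f5. E2f4 lies on chromosome 8 from 105297663 to 105305370, with a span of its own.

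Both atypical E2Fs were listed lower in Nutlin-3a. E2f7, a repressor of E2F targets, had 1.06 against 1.51 FPKM, a log2 ratio of -0.29. E2f8, its close relative, had 0.393 against 1.24 FPKM, a plain ratio 3.15-fold lower and a log2 ratio of -0.68, with a mean of 0.816 FPKM that lay under the minimum. Their sum was 1.45 against 2.75 FPKM. E2f8 and E2f2 are thus weakly expressed genes with plain ratios over 3-fold lower. Among the 2538 genes with a mean between 0.1 and 1 FPKM and both values above 0, 16.2% had a plain ratio at least 2-fold lower and 37.0% at least 2-fold higher, so E2f2 and E2f8 lay on the less common side. E2f2 had 2 transcripts, with 0.0724 against 0.314 FPKM and 1.16e-06 against 0.137 FPKM, and values this near 0 are uncertain. E2f7 lies on chromosome 10 from 110745465 to 110787384, E2f8 on chromosome 7 from 48866429 to 48881041 and E2f2 on chromosome 4 from 136172274 to 136196056.

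Set side by side, the levels kept much of their order. In DMSO the order from the top was E2f4, E2f1, E2f5, E2f3, Rbl1, Rbl2, E2f7, E2f8, Rb1 and E2f2. In Nutlin-3a Rb1 stood at rank 3 of 10, against rank 9 in DMSO, and Rbl2 passed Rbl1. Without values per library, neighbours in this order cannot be told apart by their spread. Of the 5 E2F genes compared, 3 were lower by any amount and 2 higher, of which E2f5 turned lower after quantile normalization and the GC correction. All 3 pocket protein genes were higher, beside 54.8% of all genes compared that were higher and 45.2% that were lower by any amount. E2f2 and E2f8, under the minimum mean, were both lower. Summed E2F FPKM was 47.1 against 57.4, so E2F transcripts stood at 3.09 times the pocket protein transcripts with Nutlin-3a and 11.6 times with DMSO. For E2f1 over Rb1 it was 1.62 against 18.8. These are ratios of transcript levels per length and not of proteins.

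Nearly all partners of the E2Fs stayed within 2-fold on the log2(FPKM + 1) scale. Of 11 genes for the DP partners, E2f6 and the MuvB complex with its MYB factors, 1 was at least 2-fold higher and none lower, beside 6.62% and 6.14% of all genes compared. The median log2 ratio was 0.29 against 0.07 over all genes compared, and 0.08 after the GC correction. The gene past the limit was Mybl1, the gene of A-MYB, at 2.61 against 0.205 FPKM, and it lay under the minimum when its strongest transcript stood for it or when a mean FPKM of at least 5 was asked. As plain ratios, Tfdp2 (2.54 against 1.11 FPKM) and Lin54 (5.61 against 2.50 FPKM) were also more than 2-fold higher. With a pseudocount of 0.5, 2 of the 11 genes were past the limit on the higher side, beside 831 of all 10331 genes compared. With a pseudocount of 0.1 it was 3, beside 998 of all genes compared. Tfdp1, the main dimer partner of the E2Fs, had 25.2 against 21.2 FPKM. Rbbp4, a histone-binding subunit of MuvB, had 65.2 against 42.9 FPKM, and Lin37, also of MuvB, had 25.9 against 27.0 FPKM.

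Genes of the pocket protein corepressors all stayed within 2-fold on the log2(FPKM + 1) scale. So did most genes compared, of which 12.8% were past it in either direction. As a plain ratio, Arid4a was 2.28-fold higher, at 1.87 against 0.821 FPKM. With a pseudocount of 0.1, 1 of the 15 was past the limit, on the higher side, beside 998 of all 10331 genes compared. The 15 genes had a median log2 ratio of 0.04, against 0.07 over all genes compared. The median of the 15 was -0.073 after quantile normalization and -0.081 after the GC correction. Sin3b, a corepressor scaffold gene, had 277 against 259 FPKM, Rbbp7, a histone-binding protein gene, had 110 against 129 FPKM, and the deacetylase gene Hdac3 had 59.7 against 72.8 FPKM. Of 18 genes that set pocket protein phosphorylation, 16 were compared, and Cdkn1a was the 1 past the limit, on the higher side. Beside this, 6.62% of all genes compared were higher and 6.14% lower. The median log2 ratio of the 16 was -0.12. Cdk4, a kinase that phosphorylates RB, had 280 against 364 FPKM, Ppp1ca, a phosphatase subunit gene, had 143 against 147 FPKM, and Cdkn2a, the gene of the INK4 and ARF proteins, had 776 against 1207 FPKM. Ccne2 and Cdkn1c were under the minimum.

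Known target genes of the E2Fs lay on both sides of no difference. Of 32 G1/S targets, 31 were compared, with 2 at least 2-fold higher and 3 lower, beside 6.62% and 6.14% of all genes compared. Their median log2 ratio was 0.03, and -0.16 after the GC correction. Those higher were Rrm2, a ribonucleotide reductase subunit gene (31.5 against 10.7 FPKM), and Msh6, a mismatch repair gene (35.8 against 15.9 FPKM). Those lower were Tk1, the thymidine kinase gene (6.30 against 51.1 FPKM), Uhrf1, a methylation maintenance gene, and Lig1, a DNA ligase gene at a log2 ratio of -1.05 and of -0.99 after the GC correction. Pcna, which encodes the replication clamp, had 203 against 175 FPKM, the helicase gene Mcm7 had 54.3 against 41.4 FPKM, and Slbp, which binds histone messenger RNA, had 49.0 against 43.0 FPKM.

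Targets of the DREAM complex, in which Rbl1 or Rbl2 joins E2f4 and MuvB on genes of mitosis, mostly stayed within 2-fold. Of 27 genes, 3 were at least 2-fold lower and none higher, beside 6.14% and 6.62% of all genes compared. By any amount, 16 were lower and 11 higher, and the median log2 ratio was -0.09, or -0.25 after the GC correction. The 3 were the cyclin genes Ccnb2 (-1.18 as a log2 ratio) and Ccna2 (-1.05), and Foxm1 (-1.06, or -0.95 after the GC correction), a transcription factor of mitotic genes. Birc5, the survivin gene, had 120 against 228 FPKM, Cdc20, an activator of the anaphase-promoting complex, had 106 against 85.9 FPKM, and Cks2, a kinase subunit gene, had 87.2 against 88.2 FPKM. Of 8 apoptosis genes linked to E2f1, 7 were compared, and Apaf1, the apoptosome scaffold gene and also a p53 target, was past the limit at 9.24 against 2.67 FPKM. No other gene of this list was past the limit, beside 6.62% of all genes compared that were higher and 6.14% that were lower. The median log2 ratio of the 7 was 0.50, against 0.07 over all genes compared. Bid, a BCL2 family gene, had 31.0 against 49.6 FPKM.

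**Figure D5:**
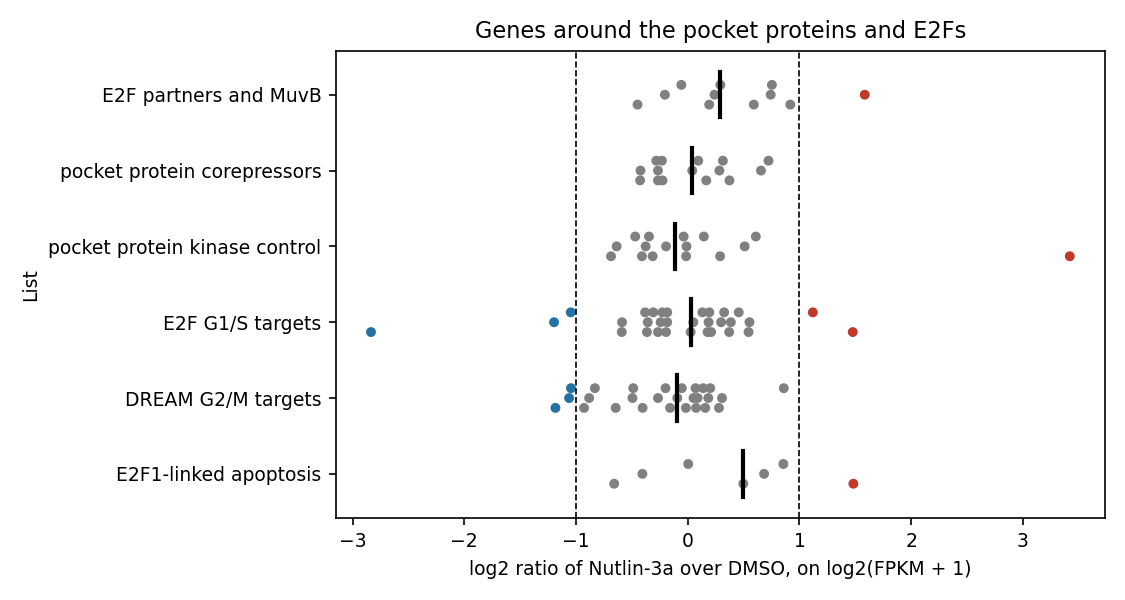
Log2 ratio of Nutlin-3a over DMSO for each compared gene of 6 lists, 1 point a gene, shifted vertically for display, with red and blue for genes at least 2-fold higher or lower, black bars for medians and dashed lines at 2-fold. Most points lie between the dashed lines, and the medians run from -0.12 to 0.50.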

How the data were processed

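Total RNA was sequenced from 4 libraries of 3T3-L1 cells, 2 per group, and groups were taken from the sample titles. The submitters' processing notes name TopHat2 2.0.11 and mm10. How FPKM was computed and replicates were combined is not given in the sources used here. FPKM is the unit that the authors deposited, with a single value for each transcript and group. Per the file headers its columns are named NUT and DSM. DSM was read as DMSO, the only other group. Other deposited columns, named as a fold, equal log2 of a row's own FPKM (largest deviation 0.0071) and were not used. Another 4294 lines were empty. Listed starts count from 0, and 1 was added for printing.

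FPKM was summed per symbol, 1 was added, and log2 ratios were taken. No test over libraries could be made, and calls rest on a 2-fold limit. GC content came from GENCODE M21 (96.2% of genes compared). Older symbols were matched through RefSeq. Members and lists were chosen with earlier results of these data known. Named from each list were genes past the limit, up to 6, and the 3 with the highest mean FPKM within it, though some of these are not reported here. Python 3.11.15, numpy 2.4.6, pandas 2.3.3 and matplotlib 3.10.9 were used.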

Additional observations from a re-analysis of the deposited data

How the results depend on the processing

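Pseudocounts of 0.1 and 0.5, other filters on low values, upper-quartile scaling, quantile normalization, a correction for GC content and the strongest transcript in place of the sum were tried. Of 72 alternative log2 ratios of the 10 genes, 2 changed sign, both of E2f5, to -0.048 after quantile normalization and -0.103 after the GC correction. Many of the 72 could not change sign. A pseudocount or a filter leaves the sign of a ratio as it is. The strongest transcript equals the sum where a gene has a single transcript. The count is therefore no measure of how stable the directions are. Rb1 ranged from 2.02 to 2.93 and was past 2-fold in each alternative that kept it. A minimum mean FPKM of 5 left 2 of the 10 genes, neither of them Rb1, and 0 past the limit. A limit of 1.5-fold gave 2 higher. With a pseudocount of 0.1, the log2 ratios of E2f2 and E2f8 were -1.68 and -1.44, and 8 genes of the lists were higher against 5. That pseudocount also raised the count of all genes higher, from 684 to 998. Over all genes, 391 were higher with a minimum mean of 5, against 684, and 1839 were higher and 1566 lower at 1.5-fold, by the smaller set and the looser limit. The median of the corepressor list turned to -0.23 with a minimum mean of 5, -0.073 after quantile normalization and -0.081 after the GC correction. That of the G1/S targets turned to -0.16 after the GC correction and -0.18 with the strongest transcript. The cause of these changes was not tested. Leaving out a replicate was not run, since no value per library is given. No paired analysis was possible for the same reason, since each column holds a single value per group. The depth is unknown, which limits genes under 1 FPKM most.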
